A study of Mus musculus with 12 samples.

Results

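The results concern 9 mouse genes whose human counterparts have been reported as differentially methylated in the cortex of people with Alzheimer's disease, namely Ank1, Rhbdf2, Cdh23, Rpl13, Serpinf1, Serpinf2, Dip2a, Spg7 and Pcnt. A row of the data is 1 strand of 1 CpG, and the rows of these genes were those inside the gene body or within 2 kb upstream of it that had at least 10 reads in at least 9 of the 12 libraries. This gave 1767 rows of the 1697482 rows that met the same coverage in the genome. Of the member rows, 1728 also had the coverage in at least 3 wild-type libraries and entered the tests, out of 1680060 rows tested in all. The rule names the 9 genes by the human reports and uses no value of these libraries, although they were picked with earlier results of these data known.

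Reduced representation bisulfite sequencing (RRBS) was applied to brain tissue dissected as a mixture of hippocampus and cortex from mice 11 months old. Unmethylated cytosines are converted and read as T in this assay, methylated ones are still read as C, and the methylation level of a row is the percentage of its reads that carry C. The wild-type group (Wt) had 3 females and 1 animal labelled male. The Tg2576 group (Tg), whose transgene expresses human APP with the Swedish familial mutation from the prion protein promoter, had 4 females and 4 males. The transgene is the only allele or treatment that the labels give. Each library came from 1 animal, and the level of a tissue mixture is a mean over its cells, so a different proportion of cell types and a different methylation within a cell type cannot be told apart.

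CpG methylation in mammals is set down and copied by DNA methyltransferases. Most CpGs of the genome are methylated, whereas CpG-dense islands at the starts of genes usually are not, and methylation of such an island goes with a silent start. The products of the 9 genes do unrelated work. ANK1 (ankyrin 1) ties the spectrin skeleton to membrane proteins. RHBDF2 (iRhom2) is an inactive rhomboid protease that brings ADAM17, a sheddase, to the cell surface. CDH23 is a long cadherin of the hair cell tip link. SERPINF1 (pigment epithelium-derived factor) and SERPINF2 (the inhibitor of plasmin) are secreted serpins. RPL13 is a protein of the large ribosomal subunit, SPG7 (paraplegin) a subunit of a mitochondrial protease, PCNT (pericentrin) a scaffold of the centrosome, and DIP2A a member of the disco-interacting protein family.

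The sequences below are those on which the results turn, in the mm10 build (GRCm38.p6). Ank1 lies on the plus strand of chromosome 8 with 4 groups of annotated transcription starts. For each group, 50 bases either side of its first start are shown on the plus strand with every CG in capitals. They are shown because the level at the starts differed by group.
Ank1 start group 1, chr8:22974794-22974894: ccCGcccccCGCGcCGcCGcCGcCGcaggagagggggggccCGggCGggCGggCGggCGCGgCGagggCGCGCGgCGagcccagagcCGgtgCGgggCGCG
Ank1 start group 2, chr8:23035049-23035149: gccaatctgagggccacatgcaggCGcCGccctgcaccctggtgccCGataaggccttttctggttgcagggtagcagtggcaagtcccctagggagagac
Ank1 start group 3, chr8:23058225-23058325: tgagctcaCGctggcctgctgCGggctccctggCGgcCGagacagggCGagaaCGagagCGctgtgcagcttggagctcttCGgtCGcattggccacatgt
Ank1 start group 4, chr8:23138980-23139080: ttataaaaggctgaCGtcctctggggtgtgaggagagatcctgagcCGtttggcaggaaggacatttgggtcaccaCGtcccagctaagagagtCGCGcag

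Single rows that stood apart between Wt and Tg, or between animals, are shown next, each with the measured CG in capitals and 40 bases either side, read 5′ to 3′ on the strand that was measured. Their values are given further on.
Cdh23, intron, minus strand, chr10:60371536-60371617: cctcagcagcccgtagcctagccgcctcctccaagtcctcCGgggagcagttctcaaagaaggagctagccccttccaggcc
Cdh23, intron, plus strand, chr10:60347115-60347196: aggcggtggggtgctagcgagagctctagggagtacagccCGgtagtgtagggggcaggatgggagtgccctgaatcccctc
Ank1, coding exon, minus strand, chr8:23123905-23123986: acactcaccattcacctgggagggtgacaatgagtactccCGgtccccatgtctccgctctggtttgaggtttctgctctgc
Pcnt, coding exon, plus strand, chr10:76388893-76388974: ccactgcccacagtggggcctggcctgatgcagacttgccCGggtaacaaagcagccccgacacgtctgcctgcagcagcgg
Serpinf1, coding exon, minus strand, chr11:75415014-75415095: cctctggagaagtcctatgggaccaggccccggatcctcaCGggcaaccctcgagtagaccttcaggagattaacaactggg
Rhbdf2, intron, plus strand, chr11:116606034-116606115: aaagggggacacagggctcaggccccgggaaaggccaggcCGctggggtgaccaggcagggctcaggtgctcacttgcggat
Rhbdf2, intron, minus strand, chr11:116606034-116606115: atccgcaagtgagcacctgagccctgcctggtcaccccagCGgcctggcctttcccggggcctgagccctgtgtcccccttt
The last stretch holds 3 measured rows of 1 coding exon of Dip2a that lie within 71 bases, and here every CG is in capitals.
Dip2a, coding exon, plus strand, chr10:76317922-76318023: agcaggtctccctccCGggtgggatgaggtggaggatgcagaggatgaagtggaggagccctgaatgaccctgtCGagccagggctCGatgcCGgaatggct

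Tg female 4 was the shallowest library, with read counts summing to 33619981 over all rows and a median of 18 at member rows. Tg female 1 was the deepest, with a sum of 131446103 and a median of 50. These sums are not numbers of reads, because a read that covers several CpGs counts at each of them. In all, 866 of the 1728 rows had 10 reads in all 12 libraries. With 18 reads, 1 read moves a level by more than 5 percentage points. The library labelled Wt male stood apart from its label. Its mean X-chromosome level was 19.9%, whereas the 4 Tg males had 5.50 to 5.67% and the 7 females 20.7% or more. It had 0.0696 rows on chromosome Y for every 1000 autosomal rows, against 0.347 to 0.503 in Tg males and 0.0584 to 0.151 in females. Sex was kept as labelled, and results are given below with and without that library where they rest on it.

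The measured CpGs near starts were mostly unmethylated, and those elsewhere in the genes ran from unmethylated to fully methylated. Of the 1728 rows, 66.1% had a level under 10% over all libraries, 25.2% a level from 10 to 90%, and 8.62% a level of 90% or more. Over the 1507727 tested rows of any gene, these shares were 81, 14.8 and 4.22%. The member set therefore held more intermediate rows than genes at large, and Cdh23 held most of them: 48.1% of its 566 rows were intermediate, against 14.1% of the 1162 rows of the other genes.

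Rows within 1000 bp of an annotated start, called promoter rows here, numbered 886, and 839 of them were under 10%, with a median level of 0.763%. Coding exon rows lay at the other end, with a median of 92.3% over 157 rows and none under 10%. Intron rows ranged from 0 to 100% with a median of 32.7% over 576 rows. The unmethylated rows sat in CpG-dense sequence, with a median of 22 CpGs in the 201 bases around the row. That median was 7 for intermediate rows and 8 for rows of 90% or more.

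**Figure D1:**
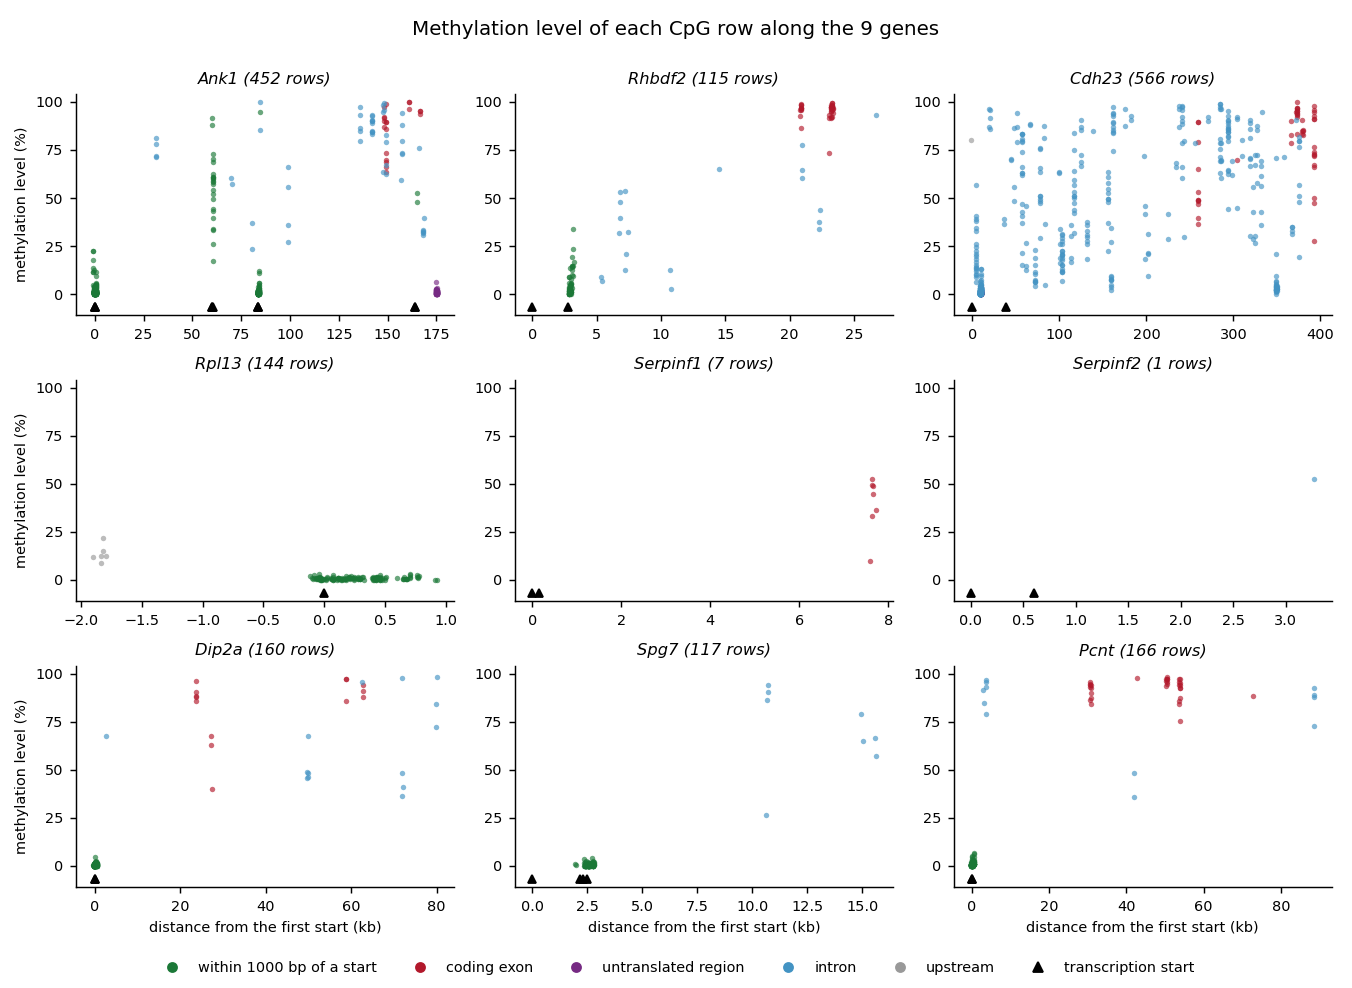
Methylation level over all libraries (y axis, %) of each tested CpG row against its distance from the most upstream annotated start of the gene (x axis, kb), with 1 panel a gene and points coloured by annotation; black triangles are annotated starts. Promoter rows of Rpl13, Dip2a, Spg7 and Pcnt lie near 0%, and the rows of Cdh23 fill the whole range of levels along the gene.

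The measured starts of the 4 genes Rpl13, Dip2a, Spg7 and Pcnt were unmethylated throughout. The most upstream start of Spg7 had no tested row within 1000 bp. Every promoter row of these genes was under 10%, with the highest at 2.95% in Rpl13, 4.55% in Dip2a, 4.35% in Spg7 and 6.77% in Pcnt. Their median levels were 0.775% over 138 rows, 0.311% over 132 rows, 0.385% over 109 rows and 0.730% over 122 rows. The promoter rows of Rpl13 also lie near the start of Snord68, a small nucleolar RNA encoded within Rpl13, and the annotated transcript Gm20388 runs through both Spg7 and Rpl13, so these rows cannot be given to 1 transcript alone.

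Ank1 (chr8:22974844-23150497) differed among its own starts. Start groups 1 and 3, with 22 and 9 CGs in the 101 bases shown above, had median levels of 0.960% over 184 rows and 0.712% over 116 rows. Start group 2, with 3 CGs in the same span, had a median of 58.6% over 23 rows with a range of 17.3 to 91.4%. Start group 4, at the short transcripts near the 3' end of the gene, was covered at only 2 rows, with levels of 47.8 and 52.7%. The level of start group 2, as the mean over the rows that each animal covered, in Wt animals was 53% ± 4.64 (SD, n = 4), that in Tg animals 57.8% ± 10.5 (SD, n = 8).

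The 3' end of Ank1 held a second unmethylated stretch that is not at a start of Ank1. The 56 untranslated region rows at chr8:23149566-23150058 had a median of 0.919% and a highest level of 6.45%, and this stretch is CpG-dense (a median of 19 CpGs in 201 bases). It lies within 1000 bp of the start of the antisense gene Gm15816. Between this stretch and the last starts of Ank1, 6 intron rows near the microRNA genes Mir486 and Mir3107 had intermediate levels of 30.8 to 39.8%. The remaining Ank1 introns and coding exons were mostly methylated, with medians of 79.7% over 51 intron rows and 91% over 20 coding exon rows.

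Cdh23 (chr10:60302748-60696490, minus strand) had no tested row within 1000 bp of either annotated start. Its unmethylated sequence lay inside the gene. The 177 rows at chr10:60686632-60687728, 8762 bases or more from the nearest start and partly in an untranslated exon, had a median of 0.730% and none above 6.85%. Next to it, 28 rows at chr10:60686029-60686277 had a median of 3.26%. Elsewhere in the gene, most stretches of at least 5 rows with gaps of at most 300 bases were intermediate. Over all the stretches elsewhere, intermediate or not, medians ran from 3.31% at chr10:60346939-60347155 to 95.1% at chr10:60323489-60323671. Between these lay, for example, 18.1% at chr10:60691773-60692173 and 51.1% at chr10:60618180-60618268. The gene Vsir, an immune checkpoint receptor, is nested in Cdh23, and the 26 rows near its start had a median of 3.31%, although 1 of them reached 70.7%. Coding exon rows of Cdh23 had a median of 83.3% over 49 rows.

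Rhbdf2 (chr11:116598165-116627019, minus strand) was covered at the downstream of its 2 starts only. The 60 rows there had a median of 2.32%, but 11 of them lay between 10 and 34.1%. Its coding exons were near full methylation, with a median of 96.7% over 35 rows and 33 of them at 90% or more. The serpins were scarcely covered. Serpinf1 had 7 rows in 1 coding exon, with levels of 10.1 to 52.3%, and Serpinf2 had 1 intron row at 52.5%. Neither had a tested row near a start, so their promoters are not described here.

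Levels varied little between animals where methylation was low. Over all 12 animals, the median SD of a row was 1.92 percentage points in rows under 10%, 16.5 points in intermediate rows and 7.22 points in rows of 90% or more. Of the 866 rows covered in all libraries, 14 had an SD above 20 points and 11 of these were in Cdh23. The 2 strands of a CpG gave close levels, with a median difference of 0.884 points over the 622 CpGs tested on both strands, and a difference above 20 points at 3 of them.

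The first comparison asked whether the mean level of a gene region differed between Wt and Tg. Each gene was split into promoter rows and the rest of the gene, and the rows covered in all 12 libraries were averaged in each animal. This left 13 regions of the 25318 in the genome. None differed beyond the spread between animals, at this minimum of 10 reads and with all libraries, by a two-sided exact permutation test over all assignments of the 12 animals to groups of 4 and 8, which can reach p = 0.00202 at the lowest. A second test used the model that lets animals differ by more than counting error (the overdispersion model, adjusted over all regions). A call needed an adjusted p under 0.1 and 10 points between pooled levels. With both conditions, 0% of all regions were called, although the lowest adjusted p over all regions was 0.0278. The promoter differences given below, of fractions of a point, could not be called under the second condition. No member region had an unadjusted p under 0.05, against 5.93% of all regions. The lowest adjusted p of a member region was 0.846.

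Promoter means differed between the groups by fractions of a point. The Ank1 promoter mean over 206 rows was 2.50, 2.30, 2.41 and 2.28% in the 4 Wt animals, and ran from 1.52 through a median between 2.26 and 2.69 to 3.01% in the 8 Tg animals. The Wt values lie inside the Tg range, and the difference was 0.0283 points (exact permutation p = 0.919). The other 5 promoters differed by at most 0.321 points, the value of Spg7, whose mean in Wt animals was 0.532% ± 0.243 (SD, n = 4), that in Tg animals 0.853% ± 0.601 (SD, n = 8). The Pcnt promoter averaged 0.573% ± 0.277 (SD, n = 4) over Wt and 0.889% ± 0.395 (SD, n = 8) over Tg animals, with an exact permutation p of 0.192. These small differences moved with single libraries. That of Spg7 was 0.175 points without Tg female 2 and that of Pcnt 0.182 points without Wt female 1, while that of Rhbdf2 rose from 0.176 to 0.648 points without Wt female 1. In the females alone the Pcnt promoter differed by 0.624 points (exact permutation p = 0.0571).

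Gene bodies showed more spread. The Ank1 body over 42 rows averaged 44.6% ± 2.50 (SD, n = 4) over Wt and 44.6% ± 1.76 (SD, n = 8) over Tg animals, and the Cdh23 body over 241 rows had 23.4% ± 1.97 (SD, n = 4) and 23.1% ± 1.75 (SD, n = 8). Those of Dip2a (11 rows), Pcnt (6 rows) and Rhbdf2 (3 rows) differed by -0.976, -2.50 and 0.681 points. The 3 Rhbdf2 rows averaged only 7.49% ± 2.49 (SD, n = 4) over Wt and 8.17% ± 4.57 (SD, n = 8) over Tg animals. No coding exon row of Rhbdf2 was covered in all 12 libraries, so its methylated exons were not compared here. At a minimum of 20 reads, only 3 of the 11 Dip2a body rows were left, within 71 bases of 1 coding exon. They are rows described below that share reads, and their mean differed by -18.5 points (exact permutation p = 0.0283). This value is therefore not one of the whole gene body. For Serpinf1, whose 3 rows lie in 1 exon, the 4 Wt animals had 36.3, 33, 28.8 and 39.8%. The 4 Tg females had 61, 65.8, 40 and 35.8%, and the 4 Tg males 11.1, 51.5, 44.2 and 67.6%. The Tg animals thus spread on both sides of the narrow Wt range, and the difference of 12.7 points had an exact permutation p of 0.218. Without Tg male 1, the lowest of them, the difference was 17.8 points and the exact permutation p 0.0333. The 3 rows of the Rpl13 upstream region averaged 8.43% ± 4.41 (SD, n = 4) over Wt and 14.2% ± 8.13 (SD, n = 8) over Tg animals, with an exact permutation p of 0.190. Their difference of 5.80 points was 3.73 points without the library labelled Wt male.

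**Figure D2:**
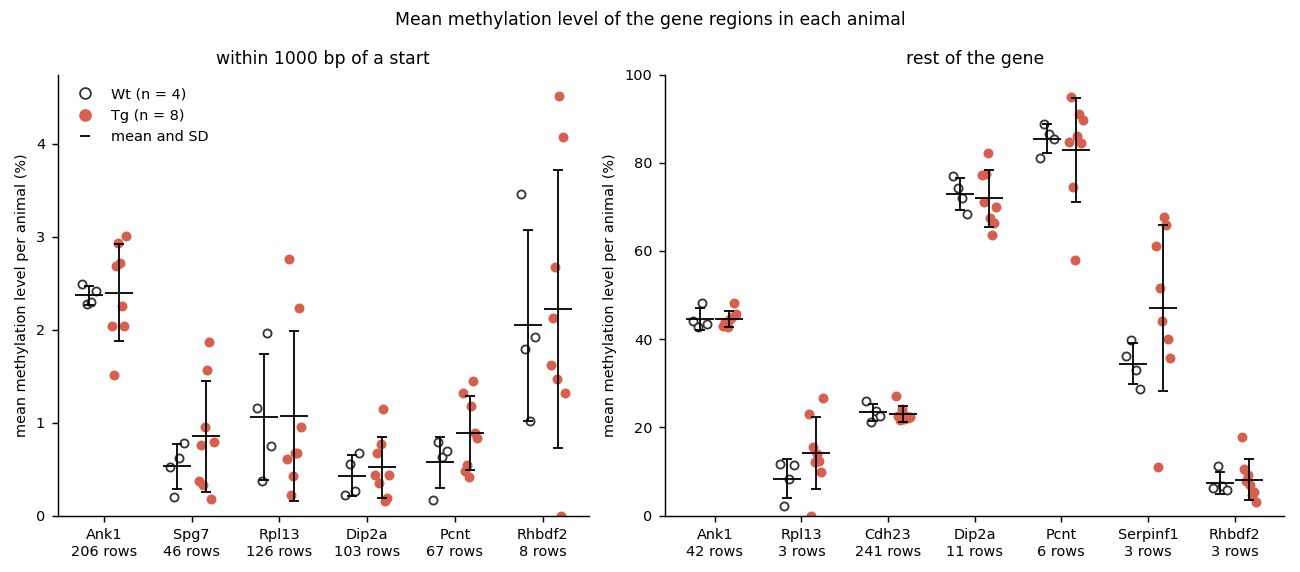
Mean methylation level (y axis, %) of 13 gene regions in each animal, over rows covered in all 12 libraries; open circles are the 4 Wt animals, filled circles the 8 Tg animals, and bars the mean and SD. The Wt and Tg animals overlap in every region, and the Tg animals of Serpinf1 run from 11.1 to 67.6%.

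The second comparison took single rows. By the binomial model, a logistic regression of methylated and unmethylated reads on genotype and sex, a row was called at an adjusted p under 0.1 and a difference between the pooled levels of at least 10 points. It called 85 of the 1728 member rows (4.92%), against 4.32% of all rows tested. Of these, 48 were higher in Tg (2.78% of the member rows, against 2.35% of all rows) and 37 were lower. The member genes were thus called at about the rate of the genome. Without the library labelled Wt male, 78 rows were called (4.51%), against 3.6% of all rows. The binomial model counts reads as independent, and its calls concentrated at rows with a level of 10% or more. Of the 585 such member rows, 81 were called (13.8%), against 16.6% of all such rows. Levels from 10 to 90% held 70 of the 85 calls. Only 8 of the 85 lay in promoters.

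The overdispersion model called none of the member rows and 0% of all rows. The lowest adjusted p was 0.510, both among the members and among all rows. At an unadjusted p under 0.05 it gave 137 member rows (7.93%), against 9.46% of all rows. Of simulated rows without a difference, 8.52% had such a p where animals varied (intra-class correlation 0.1). An unadjusted p of this model can thus be too small. A limma fit on logit levels of the rows covered in all libraries also called none, with 5.19% of all rows at an unadjusted p under 0.05. The dispersion is the variance left after genotype and sex over that of counting reads alone, never below 1. Its median was 2.89 in the 85 called rows, and it was above 1 in 79 of them. At 3 member rows (0.174%) all Wt animals lay on 1 side of all Tg animals, which was so at 0.23% of all rows. Without the library labelled Wt male there were 15 such rows (0.868%, against 0.746% of all rows).

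The calls were spread unevenly over the genes. Cdh23 had 45 of 566 rows called (7.95%), with 26 higher and 19 lower in Tg. Rhbdf2 had 13 of 115 (11.3%), of which 11 were higher, and Ank1 13 of 452 (2.88%), of which 8 were lower. Dip2a had 6 of 160, Pcnt 4 of 166, Serpinf1 2 of 7, Rpl13 1 of 144 and Spg7 1 of 117. The 1 row of Serpinf2 was not called. Genes with most rows in unmethylated promoters had few calls. These shares are not matched for level. Intermediate rows made up 48.1% of the Cdh23 rows, against 14.1% of the rows of the other genes. The share called was 16.6% over all rows of the genome with a level of 10% or more.

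**Figure D3:**
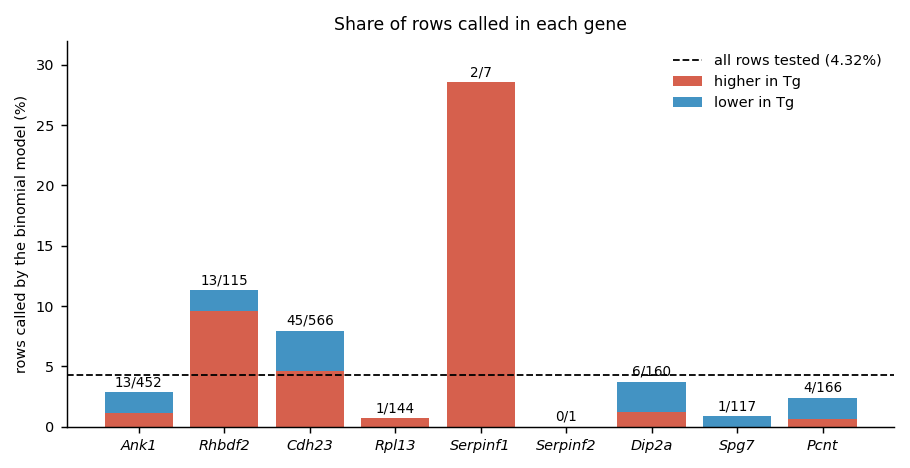
Share of the tested rows of each gene (y axis, %) called by the binomial model, split into rows higher and lower in Tg, with the number called over the number tested above each bar. The dashed line is the share over all rows tested (4.32%), whatever their level. Serpinf1, with 7 rows, Rhbdf2 and Cdh23 lie above it, and Rpl13 and Spg7 far below it.

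The opposite strand of the same CpG gave a separate set of reads for 48 of the 85 called rows. The difference between Tg and Wt had the same sign on both strands at 21 of the 48 (43.8%). It reached 10 points in the same direction at 7. Both strands were called at 5 CpGs, in the same direction at 3 of them and in opposite directions at 2. The latter, named after their values were seen, were in Cdh23, in an intron (12.9 points at the row 60321364 and -21.9 points at 60321365) and in a coding exon (-19.8 points at the row 60436788 and 15.5 points at 60436789). The agreement of the strands at called rows was not counted over the whole genome, so it cannot be told whether it is particular to these genes. With the reads of both strands summed, 55 of 1106 member CpGs were called (4.97%), against 4.91% of all CpGs.

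**Figure D4:**
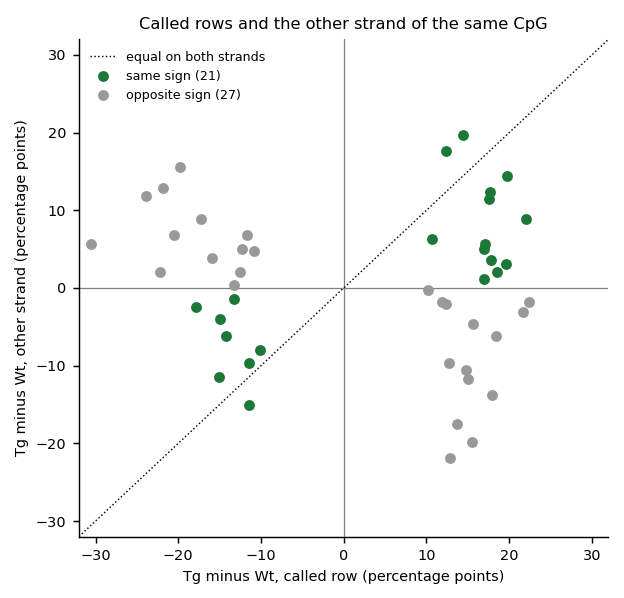
Difference Tg minus Wt in pooled level (percentage points) at each called row with a tested opposite strand (x axis) and on the opposite strand of the same CpG (y axis), for 48 rows; the dotted line marks equal differences. The 21 points of the same sign lie in the lower left and upper right, and the other 27 have opposite signs on the 2 strands.

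The row with the largest difference was in an intron of Cdh23 within the nested gene Vsir, on the minus strand at chr10:60371577. The 4 Wt animals had 5.88, 7.69, 22.6 and 12.1% (in the order females 1 to 3, male 1). The Tg females had 60, 37.5, 37.5 and 63.6%, and the Tg males 60, 44.4, 33.3 and 31%. All 8 Tg animals were above all Wt animals, with 10 to 34 reads in each. The pooled difference was 32.9 points, and it stayed between 29.2 and 36.4 points when any 1 library was left out. The overdispersion model gave an unadjusted p of 0.000447 and an adjusted p of 0.510. The opposite strand was not tested at this CpG. The other rows with separate Wt and Tg animals, listed after their values were seen, were in Ank1 and Cdh23.

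In a coding exon of Ank1, the minus strand row at chr8:23123946 had 85.2, 78.6, 100 and 100% in the 4 Wt animals. It had 73, 42.9 and 50% in Tg females 1 to 3 and 75, 58.3 and 71.4% in Tg males 2 to 4, with 2 Tg libraries uncovered. All Wt animals were above all covered Tg animals, and the pooled difference was -24.7 points. The overdispersion model gave an unadjusted p of 0.0142 and an adjusted p of 0.521. The Cdh23 row at chr10:60686681, on the plus strand in the unmethylated stretch described above, was at 0% in all 8 Tg animals, with 26 to 118 reads in each library. Its Wt values were 7.79, 1.14, 2.08 and 1.98%, so the groups did not overlap although the pooled difference was -3.04 points, and -1.75 points without Wt female 1. On the opposite strand the pooled difference was -4.88 points, with means of 4.24% in Wt and 0.379% in Tg. Neither strand reached the 10 points of a call.

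A second Cdh23 row in Vsir, on the plus strand at chr10:60347155 near the start of Vsir, was high in Wt. Its Wt values were 88.9, 100, 92.5 and 81%, and its Tg values ran from 33.3 to 86.7% with a mean of 61.1% ± 17.5 (SD, n = 7). The groups overlapped by 1 Tg animal. The pooled difference was -29.6 points, with an overdispersion model p of 0.00231 unadjusted and 0.510 adjusted. The 2 rows in Vsir therefore differed in opposite directions.

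In Dip2a, 3 plus strand rows of 1 coding exon were lower in Tg. They lie within 71 bases, so they share reads and are not independent. At chr10:76317937 the Wt animals had 55.1, 52.2, 36.4 and 54.3% and the Tg animals 11.8 to 48% with a mean of 30.6% ± 12 (SD, n = 8). At chr10:76317996 the Wt animals had 64, 75, 72.7 and 80% and the Tg animals 33.3 to 85.7%. The groups overlapped at each row, and Tg male 3 was the highest Tg animal at the second. The pooled differences were -18.5, -19.7 and -16.7 points at chr10:76317937, chr10:76317996 and chr10:76318008, with unadjusted overdispersion model p-values of 0.0159, 0.0363 and 0.0511 and adjusted ones of 0.522 or more.

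The Pcnt row at chr10:76388933, in a coding exon, had 63.8, 81.2, 66.7 and 53.3% in Wt and 62.5 to 100% in the 7 Tg animals covered. Its pooled difference was 18.9 points. The p of the overdispersion model was 0.0290 unadjusted and 0.523 adjusted. These 6 rows, with the Ank1 row above, the 60564810 and 60692128 rows of Cdh23 (-22.2 and 17.5 points) and the 116623863 row of the Rhbdf2 promoter (14.8 points), were the 10 rows called by the binomial model in the same direction whichever library was left out. On the opposite strand, the Rhbdf2 promoter row differed by -10.5 points and the Cdh23 row 60564810 by 2.04 points, so neither difference was seen on both strands.

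**Figure D5:**
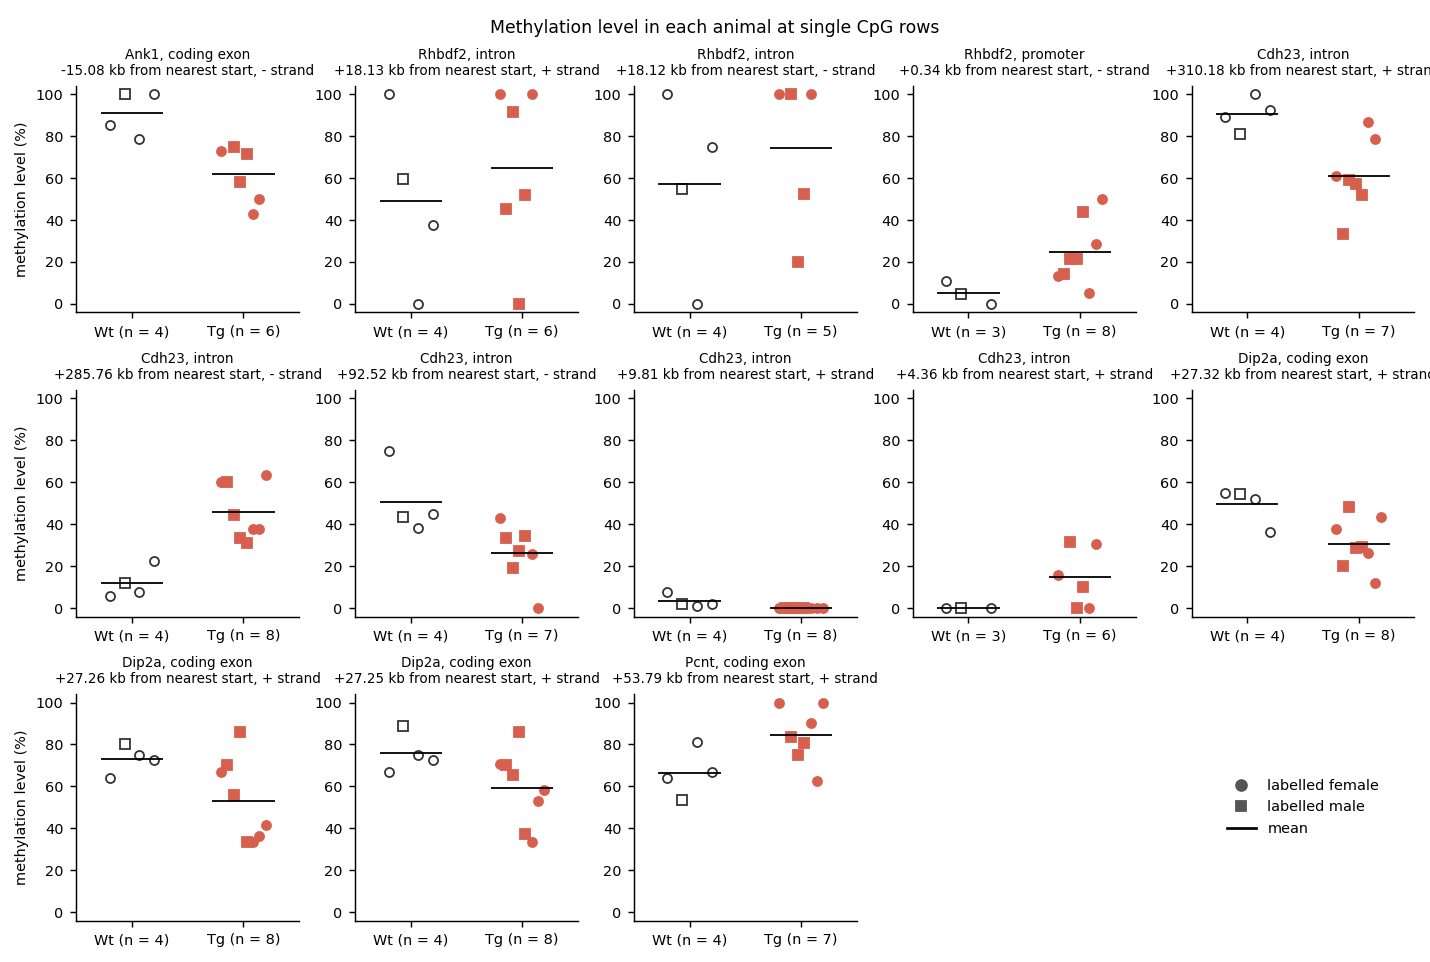
Methylation level (y axis, %) in each animal at 13 single rows, with the gene, the annotation, the distance from the nearest annotated start and the strand above each panel; open symbols are Wt, filled symbols Tg, circles animals labelled female, squares animals labelled male, and lines the mean. Wt and Tg do not overlap in the Ank1 panel and in the Cdh23 panels at 285.76 and 9.81 kb, and the 2 Rhbdf2 intron panels spread from 0 to 100%.

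Of the 3 CpGs called in the same direction on both strands, that in an intron of Rhbdf2 at chr11:116606074-116606075 varied most between animals. On the plus strand its levels were 100, 0, 37.5 and 59.5% in the Wt animals, 100 and 100% in Tg females 1 and 2, and 45.5, 91.3, 0 and 51.9% in Tg males 1 to 4. The minus strand gave 100, 0, 75 and 54.5% in Wt and 100, 100, 100, 20 and 52.6% in the 5 Tg animals covered. The animals at 0 and at 100% on the plus strand were on the same side on the minus strand where covered, but Wt female 3 was at 37.5% on one and 75% on the other. Wt and Tg animals lay at both ends. The dispersion was 31 and 14.8 on the 2 strands, and the overdispersion model gave unadjusted p-values of 0.396 and 0.410. The pooled difference of 12.4 points on the plus strand was -2.57 points without Wt female 2 and 34 points without Wt female 1.

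The second of these CpGs was in a coding exon of Cdh23 at chr10:60436650-60436651. On the plus strand the Wt mean was 36.1% ± 13.1 (SD, n = 3) and the Tg mean 62.3% ± 22 (SD, n = 7), and on the minus strand they were 32.1% ± 14.3 (SD, n = 3) and 51.5% ± 26.1 (SD, n = 6). The third, in an intron of Ank1 at chr8:23116727-23116728, was at 100% in all 3 covered Wt animals on the plus strand and at 40 to 100% in 6 Tg animals. The Tg animal at 40% was female 3 on the plus strand and female 1 on the minus strand. Unadjusted p-values of the overdispersion model lay between 0.0657 and 0.273 for these 4 rows, and the adjusted ones were 0.559 or more.

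In the remaining genes, the Serpinf1 exon row at chr11:75415055 had 33.3, 36.8, 37.3 and 48.4% in Wt and 16.7 to 73.3% in Tg, with 5 of the 8 Tg animals above all Wt animals and 1 below them. Its pooled difference was 18.4 points on the minus strand and -6.14 points on the opposite strand. The Rhbdf2 exon row at chr11:116603810 was at 100% in all 7 covered Tg animals and at 100, 93.1, 100 and 66.7% in Wt. Its difference of 11.9 points rested on the library labelled Wt male and was 2.82 points without it. The upstream row of Rpl13 at chr8:123100452 had 0 to 14.3% in Wt and 0 to 28.6% in Tg, and the Spg7 intron row at chr8:123073700 had 87.5 to 100% in Wt and 57.6 to 100% in Tg. The 1 row of Serpinf2, at chr11:75436228, averaged 50.2% ± 15.6 (SD, n = 4) over Wt and 49.3% ± 20.6 (SD, n = 8) over Tg animals.

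The rows with the largest spread over all 12 animals did not have separate Wt and Tg animals. The Ank1 intron row at chr8:23073729 had 72.4, 73.7, 9.52 and 17.2% in the 4 Wt animals and 7.69 to 73.3% in Tg, with an SD of 25.2 points over the 12 animals. The Dip2a intron row at chr10:76273255 had 72.7, 20, 33.3 and 0% in Wt and 20 to 85.7% in Tg, with an SD of 25.8 points. The binomial model called it, with a pooled difference of 23.7 points that ran from 9.83 to 34.2 points when 1 library was left out, and the overdispersion model gave an unadjusted p of 0.110 and an adjusted p of 0.603. At the Cdh23 exon row chr10:60303417, which had an SD of 25.2 points, the group means were both 69.2%. Each group held both high and low animals at all 3 rows.

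Bisulfite libraries of this kind are cut at CCGG by the enzyme MspI, and a row at a cut site lies at the end of a fragment. The letters CCGG, which read the same on both strands, held 347 of the 1728 member rows (20.1%), against 19% of all rows of the genome with the same coverage. They held 27 of the 85 called rows. Among member rows with a level of 10% or more, 13.5% of the CCGG rows and 14% of the others were called. Whether the position in the fragment takes part in any call was not tested.

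To ask whether differences extended beyond single CpGs, the reads of all rows covered in every library were summed over tiles of 1000 bp that held 3 such rows or more. The binomial model called 3 of 39 member tiles, against 2.75% of all 36172 tiles. They were the Serpinf1 exon (15.6 points), and 2 tiles of Cdh23 introns at chr10:60639000-60639999 (12.3 points) and chr10:60540000-60540999 (-10.8 points). In the last, the Wt animals had 76.2, 80, 43.3 and 38.9% and the Tg animals 35.7 to 54.2%, so the sign rested on 2 Wt females. The overdispersion model called no member tile and 0% of all tiles. The lowest adjusted p over all tiles was 0.09, under the 0.1 needed, so the 10-point condition was not met there. This model gave an unadjusted p under 0.05 at 1 member tile, against 5.81% of all tiles. That tile, of 4 Ank1 rows at chr8:23122000-23122999, averaged 92.6% ± 3.66 (SD, n = 4) over Wt and 87.7% ± 4.58 (SD, n = 8) over Tg animals, with an unadjusted p of 0.0209 and an adjusted p of 0.831.

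Another 2 lists of genes were counted in the same fit, for the share of rows called alone. A further 7 genes named by methylation studies of human Alzheimer cortex (Bin1, Abca7, Sorl1, Slc24a4, Hoxa3, Mcf2l and Stk32c) had 64 of 1366 rows called by the binomial model (4.69%), with 32 higher and 32 lower, and none by the overdispersion model. The 17 paralogues and partners of the members, among them Adam17, which RHBDF2 carries to the membrane, and Afg3l2, the partner of SPG7 in its protease, had 118 of 2339 rows called (5.04%), with 66 higher and 52 lower, and none by the overdispersion model. Both shares of rows called by the binomial model, like that of the 9 genes, lay near the 4.32% of all rows. Rows at an unadjusted overdispersion model p under 0.05 numbered 116 (8.49%) and 199 (8.51%), against 9.46% of all rows.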

How the data were processed

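Brain tissue of 12 mice was profiled by bisulfite sequencing of MspI fragments, with 1 library per animal. Per the labels and the study's methods section, the authors obtained paired-end reads from a commercial service, where Bismark aligned them to mm10 and called methylation, and then read the alignments into methylKit. The deposited values are counts of reads per cytosine of a CpG (coverage, reads with C and reads with T), with strands apart, no pooling and at least 10 reads a row. Tool versions are not given in the sources used here.

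From these counts, rows were placed in genes with the GENCODE M21 basic annotation, from the gene body to 2000 bases upstream. Rows with 10 reads in at least 9 libraries, 3 of them Wt, were tested in 2 ways with sex as covariate. The binomial model was a logistic regression tested by its likelihood ratio. In the overdispersion model this deviance was divided by the Pearson dispersion of the row, never below 1, and referred to an F distribution. P-values were adjusted over all rows of the genome by the Benjamini-Hochberg method, and a call needed an adjusted p under 0.1 and 10 percentage points between pooled levels. Tiles of 1000 bp and gene regions were fitted alike, and region means were put to a two-sided exact permutation test. P-values of the binomial model cover counting error only, and those of the overdispersion model and the permutation test measure the spread between these animals.

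In 20000 simulated rows of this comparison with 200 shifted by 30 points, the binomial model recovered 190 and the overdispersion model 81 under counting error alone. Where simulated animals varied (intra-class correlation 0.1), they recovered 187 and 11. The binomial model then also called 1000 unshifted rows, against 7 by the overdispersion model. Of the unshifted rows, 8.52% then had an unadjusted overdispersion model p under 0.05, against 1.91% under counting error alone. Within each gene, the rows to name were the one with the smallest overdispersion-model p among those with a difference of at least 10 points, the one with the largest SD over 12 covered libraries, and rows called in the same direction on both strands. Rows with separate groups, and rows called whichever library was left out, were added after values were seen. The members and lists were chosen with earlier results of these data known. Alternatives varied the read minimum, the libraries, the strands, the covariate, the thresholds, the tile, the promoter and the test, and left out each library in turn. Intervals were not drawn, since reads of 1 fragment are not independent molecules. Versions were Python 3.11.15, numpy 2.4.6, scipy 1.17.1, R 4.3.3 and limma 3.58.1.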

Additional observations from a re-analysis of the deposited data

Results flagged for a closer look

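In 80 groups of 4 to 8 animals (the Wt or the Tg animals of 43 gene regions and named rows), 7 held 1 animal whose gap to its nearest neighbour exceeded Dixon's critical value. Chance flags about 1 in 20 groups of unselected normal values. The named rows were picked by their values, so this rate is not a baseline for them. The mean of the Cdh23 gene body was 27.1% in Tg female 1, while the other 7 Tg animals had 21.8 to 24.1%. At the Ank1 CpG called on both strands, 1 Tg animal was at 40% on each strand, female 3 on the plus strand (the others 87.5 to 100%) and female 1 on the minus strand (the others 80 to 100%). At the Cdh23 row 60686681, where every Tg animal was at 0%, Wt female 1 had 7.79% and the other Wt animals 1.14 to 2.08%. At the Dip2a row 76317937, Wt female 3 had 36.4%, below the other Wt animals (52.2 to 55.1%) and inside the Tg range. At the Spg7 promoter row 123065716, Tg male 4 had 25.6% and the other Tg animals 0 to 7.69%. At the Spg7 intron row 123073700, Wt female 2 had 87.5% and the other Wt animals were at 100%. What sets these animals apart was not tested.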

How the results depend on the processing

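Of the calls by the overdispersion model, none appeared among member rows, tiles or regions under any alternative, limma included. The binomial model called 18 member rows at 20 reads (1.79%, against 1.83% of all rows) and 15 among rows in all 12 libraries (1.73%, against 1.72%). It called 55 with strands summed (4.97%, against 4.91%), 99 in the females alone (5.82%, against 4.91%) and 93 without a covariate (5.38%, against 4.68%). With 1 library left out it called from 78 without the library labelled Wt male (4.51%, against 3.6%) to 111 without Tg male 3 (6.42%, against 4.47%). At a threshold of 25 points it called 5, a setting whose share over all rows was not counted. Separate groups occurred at 46 member rows in the females alone (2.71%, against 2.63% of all rows). With 1 library left out they occurred at 3 to 15 (0.174 to 0.868%, against 0.296 to 0.799% of all rows). At 20 reads there were 3 (0.299%, against 0.187%) and among rows in all 12 libraries 2 (0.231%, against 0.0709%). With strands summed there were 3 (0.271%, against 0.281%). At 20 reads the binomial model called 0 of the member tiles.

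The means of 9 of the 13 gene regions changed sign somewhere, and no changed sign passed the exact permutation test (values are Tg minus Wt, in points). In the females alone they were -0.0659 (Ank1 promoter), 0.273 (Ank1 body), -0.168 (Rpl13 promoter), -0.0790 (Dip2a promoter), 3.20 (Pcnt body) and -0.382 (Rhbdf2 promoter). Read-weighted levels gave -0.0542 (Ank1 promoter), 1.41 (Ank1 body), 1.45 (Cdh23 body), -0.0618 (Rhbdf2 promoter) and -1.94 (Rhbdf2 body). A minimum of 20 reads gave 0.741 (Ank1 body) and -0.138 (Dip2a promoter), and all covered rows gave -0.0167 (Rpl13 promoter) and -0.585 (Rhbdf2 body). With 1 library left out, the ranges were -0.0590 to 0.154 (Ank1 promoter), -0.651 to 1.21 (Ank1 body), -0.231 to 0.312 (Rpl13 promoter), -0.998 to 0.539 (Cdh23 body), -2.50 to 0.385 (Dip2a body), -4.22 to 1.06 (Pcnt body), -0.169 to 0.648 (Rhbdf2 promoter) and -0.690 to 1.91 (Rhbdf2 body). At 20 reads the Dip2a body held only the 3 coding exon rows within 71 bases. Their difference was -18.5 points, with an exact permutation p of 0.0283. The cause of these changes was not tested. No paired analysis was possible because the labels give no replicate numbers. At these depths and with 4 Wt animals, the overdispersion model recovered 81 of 200 simulated differences of 30 points under counting error alone and 11 where animals differed, so differences of this size or smaller at single rows would mostly not be detected.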
